A study of Schizosaccharomyces pombe with 36 samples.

Results

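The 100 mRNAs described here held their largest share of 4-thiouracil-labelled RNA at the middle time points of a labelling course in wild-type (WT) fission yeast. They were chosen by a score: the lower of the WT means at time points 20 and 50, minus the higher of the WT means at 5 and 125. Each mean was taken over 3 cultures on the scale log2(CPM + 1), where CPM is counts per 1000000 Schizosaccharomyces pombe counts of a library. Of 7268 S. pombe genes in the files, 5330 had a systematic name of the kind given to genes on the chromosome clones, and 4633 of these averaged at least 50 counts over the WT libraries. A score above 0 was found for 389 of the 4633, and the 100 highest were taken. All 100 were annotated as protein coding, and 80 had a gene symbol.

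The study compared cells lacking slr1 (strain yMAB001, labelled a knockout) with WT cells (strain yAS99). Slr1 is a homologue of LARP1, an RNA-binding protein of the La-related family. For each strain, 3 cultures were started from single colonies of plates kept at 32 °C, received 5 mM 4-thiouracil and were sampled repeatedly. Each culture gave 1 library of total RNA without selection (steady state), and 5 of RNA recovered through its thiol groups with biotin and streptavidin, at time points 5, 20, 50, 105 and 125. All cultures of both strains received the analogue, and the time points are named by number because the labels give no unit. The labels describe the knockout by its strain name alone and do not say whether its cultures derive from 1 transformant.

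4-thiouracil is taken up by S. pombe, converted to a uridine nucleotide and built into RNA as it is transcribed, so the recovered RNA is enriched for molecules made since the analogue was added. A transcript whose synthesis briefly increases during the course gains share in the labelled RNA and then loses it. Heat shock genes are the textbook case of such a transient response: the transcription factor Hsf1 binds heat shock elements upstream of chaperone genes, and small heat shock proteins such as Hsp16 bind unfolded protein.

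Library totals ran from 921427 to 6517092 S. pombe counts. The slr1 transcript averaged 17.5 ± 5.56 CPM in knockout and 121 ± 37.7 CPM in WT steady-state libraries (SD, n = 3 each), and in each fraction the knockout libraries lay below all WT libraries. The cultures also fell into 2 sets by their fly-to-human count ratio at steady state, without following genotype. One set held knockout culture 2 with WT cultures 1 and 2, and the other held knockout cultures 1 and 3 with WT culture 3. Several peaks below differ between cultures, not always along these sets, so values are given culture by culture. All levels are shares of S. pombe counts, in which fewer copies per cell and a larger share of other RNAs cannot be told apart.

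The WT values chose the members and are given as a description. Their scores ran from 1.75 for hsp16 to 0.173 for the last member, with a median of 0.25; the median over the 4633 genes was −0.50. Just inside the limit lay pre3, at 0.173, and SPBC11C11.06c, also at 0.173; just outside lay SPAC26H5.09c, at 0.169, and spo20, also at 0.169. The highest labelled mean in WT fell at time point 20 for 61 members and at 50 for 39. Most peaks were low: the median member stood 0.48 above its level at 5 by time point 20 and 0.43 above it at 50 (log2). At 105, 98 members lay below both middle time points in WT, as did 49.2% of the 4633 genes. The score did not use 105, but the middle means it is set against were chosen to be high, so this count follows in part from the choice. The score was above 0 in WT cultures 1, 2 and 3 taken singly for 65, 81 and 92 members, and in all 3 for 48.

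The knockout libraries played no part in the choice, and the same peak was looked for there. In the knockout the score was above 0 for 81 of 100 members, against 6.8% of the 4633 genes. It was above 0 in knockout cultures 1, 2 and 3 taken singly for 73, 45 and 64 members. All 3 cultures had it above 0 for 23 members, against 1.04% of the 4633 genes. The mean of 20 and 50 exceeded that of 5 and 125 in all 3 knockout cultures for 78 members, against 13.2% of the 4633 genes. The highest labelled mean in the knockout fell at time point 20 for 51 members and at 50 for 43, against 11.2% and 6.86% of the 4633 genes. At 105, 88 members lay below both middle time points, as did 52.5% of the 4633 genes. Over the members the knockout score ran from −0.28 to 1.86 with a median of 0.15. Across the 100 members, the 2 scores correlated with r = 0.767 and rho = 0.485, and across all 4633 genes with r = 0.815 and rho = 0.829. The genes share libraries and are not independent.

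**Figure D1:**
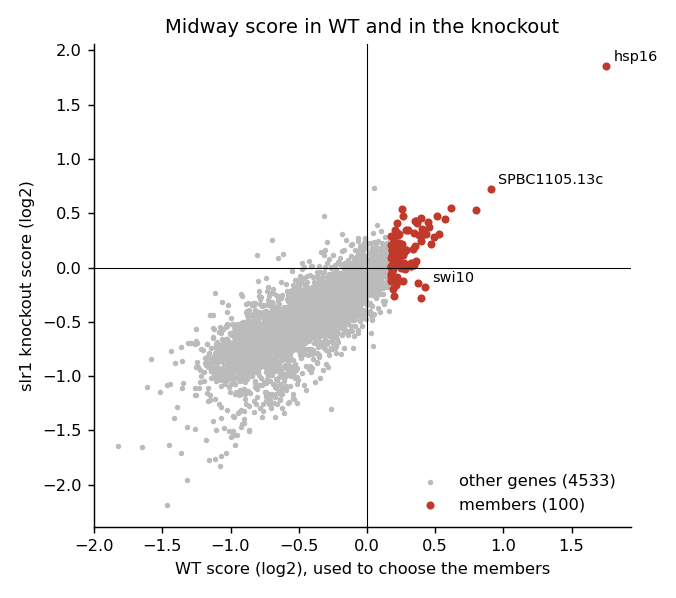
WT score (horizontal axis, log2) and slr1 knockout score (vertical axis, log2) of 4633 S. pombe genes, with the 100 members in red and the other genes in grey. The members lie right of the others because the horizontal axis chose them; 81 of the 100 lie above 0 on the vertical axis, and hsp16 stands far from the rest on both.

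The rise and fall differed in size between cultures. By time point 20 the median member had gained 0.44, 0.12 and 0.45 (log2) over time point 5 in knockout cultures 1, 2 and 3, against 0.51, 0.39 and 0.51 in WT cultures 1, 2 and 3. By 125 it stood at 0.10, 0.07 and −0.12 relative to 5 in the knockout cultures, against 0.41, −0.09 and −0.02 in the WT cultures. Knockout culture 2 had the smallest gain by 20, and WT culture 1 the highest level at 125. Both belong to the set with the lower fly-to-human ratio. WT culture 2 of that set shared neither trait, with 0.39 by 20 and −0.09 at 125. In knockout culture 2 the highest labelled library was that of time point 50 for 51 members and that of 20 for 24, whereas time point 20 was the highest for 52 and 51 members in knockout cultures 1 and 3.

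**Figure D2:**
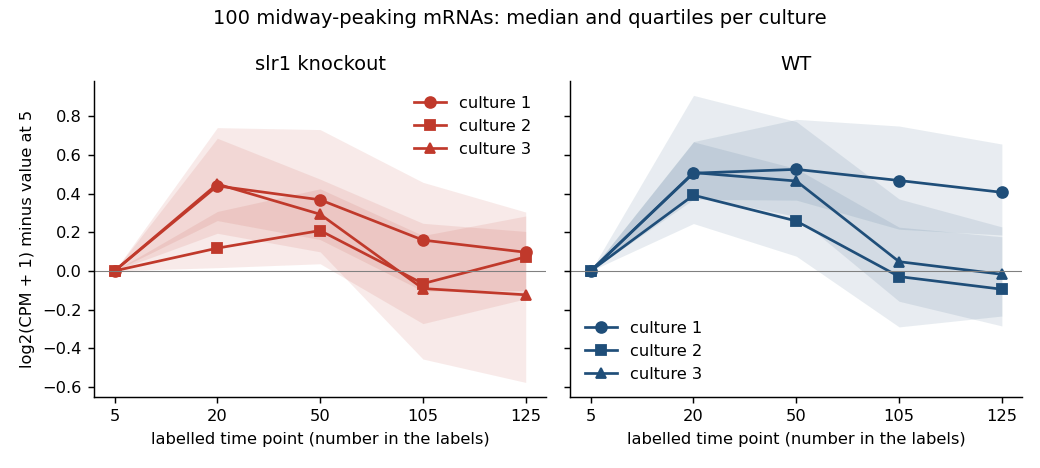
Change of log2(CPM + 1) from time point 5 at each labelled time point (horizontal axis, numbers as in the labels), slr1 knockout on the left and WT on the right. Lines are the median over the 100 members in each culture and bands the quartiles; at 20 the knockout medians were 0.44, 0.12 and 0.45 and the WT medians 0.51, 0.39 and 0.51 in cultures 1, 2 and 3.

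The peak was tested in the 15 labelled knockout libraries as the mean of time points 20 and 50 minus the mean of 5 and 125, called the midway contrast. The test was edgeR's quasi-likelihood test, with Benjamini-Hochberg adjustment over 5528 genes and a threshold of 0.05. This contrast is also above 0 for an mRNA that rises after 5 and then stays level. A call in it is therefore not by itself a peak. With the culture as a block, 9 members were higher midway than at both 5 and 125, as given below. Without regard to culture, 0 of 100 members were called, and 0% of all genes tested. At an unadjusted p under 0.05 there were 47 members, all of them higher midway, against 232 higher and 98 lower of the 5528 genes. DESeq2 called 10 members higher, against 0.597% of all genes. The libraries of 1 culture come from the same cells sampled repeatedly, and with the culture as a block in edgeR 24 members rose midway and 0 fell. Of all genes tested, 1.28% rose and 0.253% fell with the block. The median change of the members was 0.38 without the block and 0.37 with it, against medians of 0.003 and 7.85e-05 over the 4633 genes. With the block each of the 100 estimates was above 0. Without knockout culture 1 the blocked count was 0, without culture 3 it was 21 and without culture 2 it was 37, of which 21 were among the 24. The shares of all genes called higher in these 3 fits were 0, 0.942 and 2.71%.

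The 24 included several chaperone mRNAs. Of 19 heat shock and chaperone genes listed, 5 were members, and 4 of these rose midway in the knockout with the block: hsp16, wos2, hsp10 and sti1. The median midway contrast of the 19 was 0.50 in the knockout, against 0.003 over the 4633 genes. Without the block their contrasts ran from −0.07 for hsf1 to 2.74 for hsp16. The median score of the list was below 0, at −0.12 in the knockout and −0.16 in WT, against −0.49 and −0.50 over the 4633 genes. No further gene of the list was called, with or without the block.

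The small heat shock protein gene hsp16 (SPBC3E7.02c) headed the members in both strains. At time point 5 it had 24.6, 156 and 129 CPM in knockout cultures 1, 2 and 3, against 30.1, 118 and 50.6 CPM in WT cultures 1, 2 and 3. At 20 it had 1609, 264 and 1989 CPM in the knockout cultures, against 279, 1273 and 5258 CPM in the WT cultures. At 50 it had 566, 325 and 324 CPM in the knockout cultures, against 205, 486 and 1302 CPM in the WT cultures. The ranges of the 2 strains overlapped at each of these time points, and knockout culture 2 and WT culture 1 had the lowest values of their strain at 20. By 125 the levels were 66.4, 179 and 103 CPM in the knockout cultures and 122, 162 and 168 CPM in the WT cultures. Its midway contrast in the knockout was 2.85 with the block (SE 0.48, edgeR adjusted p = 0.0116) and 2.74 without it (SE 0.52, adjusted p = 0.181). Both legs passed with the block, by 3.13 against time point 5 (SE 0.63, adjusted p = 0.00239) and by 2.56 against 125 (SE 0.62, adjusted p = 0.0195).

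The mRNAs of 2 co-chaperones of Hsp90 were likewise lowest at 20 in knockout culture 2 and WT culture 1 of their strains. For wos2, which encodes the p23 co-chaperone, the levels at 20 were 2495, 659 and 2409 CPM in knockout cultures 1, 2 and 3, against 722, 1385 and 3863 CPM in WT cultures 1, 2 and 3. At 5 they were 863, 455 and 1178 CPM in the knockout cultures and 381, 561 and 1148 CPM in the WT cultures. Each culture was higher at 20 than at 5, and the strains overlapped at both. The midway contrast of wos2 in the knockout was 0.81 with the block (SE 0.14, edgeR adjusted p = 0.0116) and 0.86 without it (adjusted p = 0.773). The gene sti1, for the co-chaperone that links Hsp70 and Hsp90, had 2269, 529 and 2379 CPM at 20 in the knockout cultures, against 461, 973 and 2666 CPM in the WT cultures. Its contrast was 0.84 with the block (SE 0.16, adjusted p = 0.0189) and 0.85 without it (adjusted p = 0.817). The fifth list member, aha1, for an activator of the Hsp90 ATPase, had a blocked contrast of 0.56 that did not pass (adjusted p = 0.0767).

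Hsp10 is the co-chaperonin of mitochondria. Its mRNA reached its highest knockout mean at time point 50, with 1547, 967 and 1259 CPM in knockout cultures 1, 2 and 3, against 779, 1521 and 1634 CPM in WT cultures 1, 2 and 3. At 5 it had 638, 418 and 637 CPM in the knockout cultures and 294, 545 and 858 CPM in the WT cultures. In the knockout the values at 50 lay above all values at 5, and the contrast was 0.73 with the block (SE 0.13, edgeR adjusted p = 0.0132). An hsp10 transcript overlaps a coding gene on the opposite strand, and whether the counting used strand is not stated in the labels.

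The members pss1, cnx1 and hsp20 also encode chaperones but were outside the list, and pss1 and cnx1 were picked out after their values were seen. Pss1 is an Hsp110-type partner of Hsp70, and its mRNA rose midway by 0.63 with the block (SE 0.11, edgeR adjusted p = 0.0116). Calnexin, the product of cnx1, folds glycoproteins in the endoplasmic reticulum, and its mRNA rose by 0.59 (SE 0.13, adjusted p = 0.0333). The small heat shock protein gene hsp20 had 264, 100.5 and 232 CPM at 20 in knockout cultures 1, 2 and 3, against 129, 184 and 296 CPM in WT cultures 1, 2 and 3. At 5 it had 108, 93.1 and 126 CPM in the knockout cultures and 94.0, 95.1 and 125 CPM in the WT cultures. In knockout culture 2 it was highest at 50, with 125 CPM, and the blocked contrast of 0.63 did not pass (SE 0.15, edgeR adjusted p = 0.0551).

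**Figure D3:**
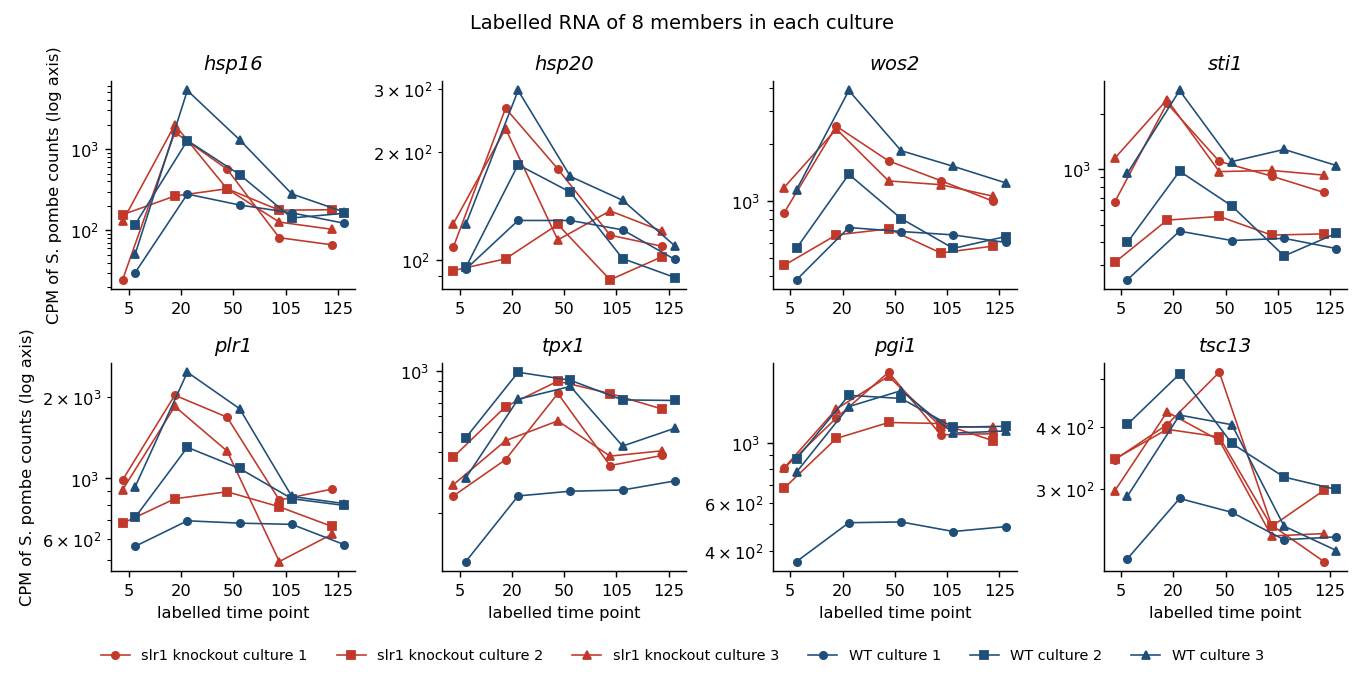
CPM (vertical axes, log scale) of 8 members at the labelled time points (horizontal axes), one line per culture, slr1 knockout in red and WT in blue. The sharp peak of hsp16, hsp20, wos2 and sti1 at 20 is seen in knockout cultures 1 and 3 and WT cultures 2 and 3. It is low in WT culture 1, where hsp20 was level at 20 and 50. In knockout culture 2 all of these genes were highest at 50, not at 20. The peaks of pgi1 and tsc13 are broader.

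Heat shock mRNAs that peaked and declined before time point 50 fell outside the members, because the score takes the lower of 20 and 50. For hsp104, a disaggregase gene with a WT score of −1.42, the knockout means were 500 ± 353, 1125 ± 667 and 174 ± 78.2 CPM at 5, 20 and 50, against WT means of 357 ± 175, 930.4 ± 876 and 122.9 ± 25.3 CPM (SD, n = 3 each). For ssa1, an Hsp70 gene, the knockout means were 617 ± 386, 2114 ± 1220.1 and 309 ± 208 CPM at those time points, against WT means of 516 ± 349, 2268 ± 1983 and 237 ± 50.8 CPM. Their levels at 20 were highest in the 2 strains' cultures of the higher-ratio set: 1183, 431 and 1760.5 CPM of hsp104 in knockout cultures 1, 2 and 3, against 244, 630.0 and 1917 CPM in WT cultures 1, 2 and 3.

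Sequence upstream of the genes was searched for the core of the heat shock element, written GAANNTTC, which reads the same on both strands. Within 250 bases before the annotated gene start it was found for 24 of 100 members, against 9.28% of the 4621 annotated genes of the 4633 and 9.49% of 5112 protein-coding genes. Of the 24 members that rose midway with the block, 8 had it. The chaperone members hsp16, hsp20, hsp10, sti1, pss1, cnx1 and aha1 were among those with the core, whereas wos2 was not. The stretches below are shown because they place the core ahead of 5 chaperone genes. They are 60 bases each, 5′ to 3′ on the gene's own strand, from RefSeq assembly ASM294v3, with the core in capitals. The cores begin at −93, −77, −62, −93 and −188 relative to the gene start, and the last 3 genes were picked after their values were seen.
hsp16 (chrII:2661052-2661111, minus strand): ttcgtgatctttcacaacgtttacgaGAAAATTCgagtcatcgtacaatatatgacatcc
hsp20 (chrIII:1365015-1365074, plus strand): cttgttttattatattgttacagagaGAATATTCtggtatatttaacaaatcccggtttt
hsp10 (chrIII:1195866-1195925, minus strand): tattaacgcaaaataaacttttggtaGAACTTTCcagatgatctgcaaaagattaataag
sti1 (chrIII:1263635-1263694, minus strand): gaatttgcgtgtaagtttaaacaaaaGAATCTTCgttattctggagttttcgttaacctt
pss1 (chrI:1920851-1920910, minus strand): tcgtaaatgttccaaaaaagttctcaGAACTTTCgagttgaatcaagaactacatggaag

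Of the other 14 motifs searched on both strands, none had so large a gap between the members and all promoters. A 3-unit form of the element, the core extended by a further GAA unit, was found for 3 members and 0.411% of all promoters, and overlaps the core by construction. The core with its units in the other order, TTCNNGAA, was found for 10 members and 8.35% of all promoters. A site core of the stress factor Atf1, TGACGT, was found for 7 members and 5.52% of all promoters, and the Pap1 site, TTACTAA, for 17 members and 10.7%. The HomolD box of ribosomal protein promoters, CAGTCAC, was found for 0 members and 4.52% of all promoters. TATAAA was found for 49 members and 44.4% of all promoters. A match describes the letters in this window and is not evidence of binding.

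Of 25 core environmental stress genes, which respond to many stresses in S. pombe, 3 were members (hsp16, plr1 and shr3). With the block hsp16, plr1 and trx1, a thioredoxin gene that is not a member, rose midway, whereas shr3 did not pass (edgeR adjusted p = 0.148); the list median was 0.09. Of 14 genes of the oxidative stress list, tpx1 was the member, and tpx1 and trx1 rose with the block; the list median was 0.21. The pyridoxal reductase gene plr1, for an enzyme of vitamin B6 metabolism, had 2029, 842 and 1844 CPM at 20 in knockout cultures 1, 2 and 3, against 698, 1303 and 2466 CPM in WT cultures 1, 2 and 3. At 105 it had 833, 786 and 494 CPM in the knockout cultures and 677, 842 and 858 CPM in the WT cultures. Each knockout culture was lower at 105 than at 20, by little in culture 2. Its contrast was 0.87 with the block (SE 0.16, edgeR adjusted p = 0.0134) and 0.90 without it (adjusted p = 0.217). The peroxiredoxin gene tpx1 peaked at 50 in each knockout culture, with 777, 894 and 570.2 CPM, against 257, 903 and 842 CPM in WT cultures 1, 2 and 3. At 5 it had 244, 379 and 277 CPM in the knockout cultures and 116, 471 and 299 CPM in the WT cultures. WT culture 1 had no midway peak of tpx1, which went on rising to 261 CPM at 105 and 289 CPM at 125. The contrast of tpx1 was similar in the 3 knockout cultures, at 0.80, 0.64 and 0.60 (log2), and passed with the block at 0.77 (SE 0.12, edgeR adjusted p = 0.0116). The aldo-keto reductase gene SPAC977.14c (0.57) and the dehydrogenase gene SPCC663.09c (0.59) rose with the block as well.

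Of 15 genes of glycolysis and fermentation, 3 were members, pgi1, pgk1 and adh1, and these 3 alone of the list rose midway with the block. The median contrast of the list was 0.31, and its median score was −0.43 in the knockout and −0.10 in WT, against −0.49 and −0.50 over the 4633 genes. The gene pgi1, for glucose-6-phosphate isomerase, had 804, 679 and 807 CPM at 5 in knockout cultures 1, 2 and 3, against 364, 873 and 780.2 CPM in WT cultures 1, 2 and 3. At 50 it had 1823, 1189 and 1761 CPM in the knockout cultures, against 510.1, 1458 and 1558 CPM in the WT cultures. All 3 knockout values at 50 lay above those at 5, and WT culture 1 was the lowest library at both. The contrast of pgi1 was 0.67 with the block (SE 0.10, edgeR adjusted p = 0.0116). Phosphoglycerate kinase mRNA (pgk1) rose by 0.55 (SE 0.12, adjusted p = 0.0419) and that of the fermentative alcohol dehydrogenase (adh1) by 0.46 (SE 0.11, adjusted p = 0.0480), both with the block.

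Of 99 genes of vacuolar and secretory traffic, 4 were members (vps55, vps68, sec17 and vps29); 0 genes of the list were called in the midway contrast, with or without the block, and the list median was 0.03. Outside that list, and picked after their values were seen, the membrane protein genes tsc13, snd302, tts1, SPBC32F12.12c and SPAC3G6.05 rose with the block. The enoyl reductase gene tsc13, whose product elongates very-long-chain fatty acids, had 344, 345 and 298 CPM at 5 in knockout cultures 1, 2 and 3, against 217, 405 and 290.1 CPM in WT cultures 1, 2 and 3. At 20 it had 404, 396 and 429 CPM in the knockout cultures, against 287, 511 and 423 CPM in the WT cultures. At 125 it had 214, 298 and 244 CPM in the knockout cultures, against 240.4, 299 and 226 CPM in the WT cultures. In the knockout each value at 20 lay above each value at 5 and at 125. Its contrast was 0.60 with the block (SE 0.11, edgeR adjusted p = 0.0134), and it passed both legs. The gene snd302, of the Pho88 family that inserts proteins into the endoplasmic reticulum in budding yeast, rose by 0.60 (SE 0.10, adjusted p = 0.0116), and tts1, for a membrane protein that shapes the endoplasmic reticulum, by 0.74 (SE 0.14, adjusted p = 0.0189).

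The remaining genes that rose midway with the block were SPBC1105.13c, SPBC1271.07c, vip1, mug35, pre3 and SPBC30D10.14. The uncharacterized gene SPBC1105.13c had the second highest WT score, 0.91, at low levels. It had 77.2, 23.8 and 91.9 CPM at 20 in knockout cultures 1, 2 and 3, against 24.7, 56.2 and 154 CPM in WT cultures 1, 2 and 3. At 125 it had 12.5, 17.6 and 12.6 CPM in the knockout cultures, against 15.96, 16.3 and 23.0 CPM in the WT cultures. Its contrast was 1.34 with the block (SE 0.27, edgeR adjusted p = 0.0227). The acetyltransferase gene SPBC1271.07c had a contrast of 1.02 with the block (SE 0.20, adjusted p = 0.0203), but by culture it was 1.33, 0.003 and 1.48 in knockout cultures 1, 2 and 3. For vip1, which encodes an RNA-binding protein, the change was 0.74 (SE 0.13, adjusted p = 0.0116), and for mug35 it was 0.78 (SE 0.17, adjusted p = 0.0321).

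**Figure D4:**
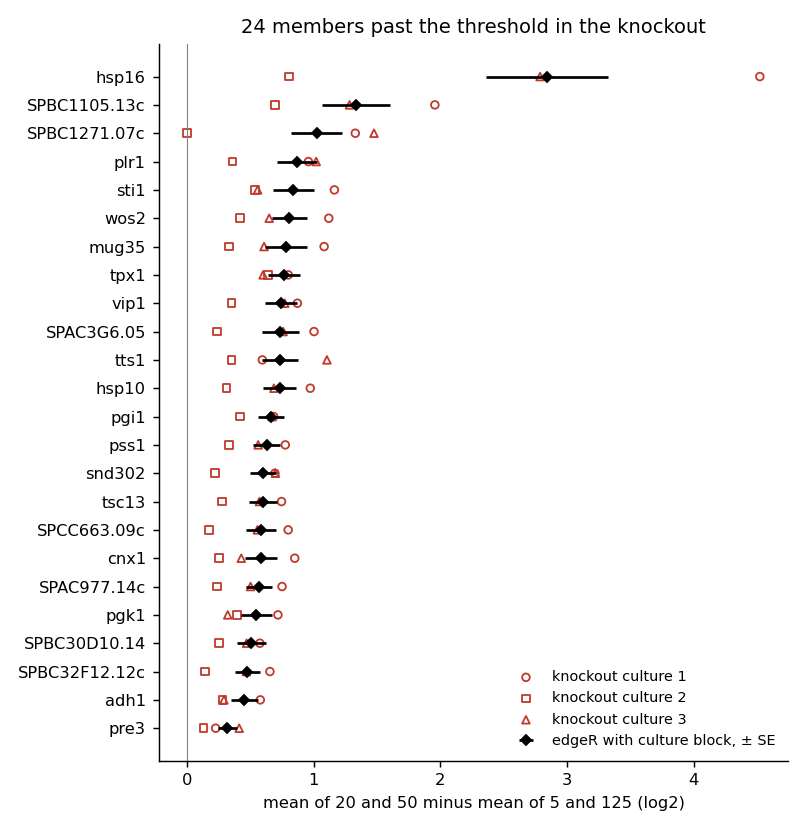
Midway contrast in the slr1 knockout (horizontal axis, log2) of the 24 members that passed with the culture block, as edgeR estimate ± SE (black) and in each culture on the log2(CPM + 1) scale (red). The estimates run from 0.32 for pre3 to 2.85 for hsp16, and culture 2 lies below both other cultures for most genes.

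Of the 10 highest WT scores, 5 genes had knockout contrasts that did not pass even with the block: SPAC688.16, hsp20, tsn1, lsm3 and ost2. The uncharacterized gene SPAC688.16 had a blocked contrast of 0.83 (SE 0.27, edgeR adjusted p = 0.133). Translin, the product of tsn1, binds nucleic acids; its blocked contrast was 0.62 (SE 0.21, adjusted p = 0.149). Lsm3 is a subunit of both Lsm rings, one in mRNA decay and one in U6 snRNA binding. Its mRNA had 53.0, 55.5 and 33.3 CPM at 20 in knockout cultures 1, 2 and 3, against 66.2, 63.1 and 53.5 CPM in WT cultures 1, 2 and 3, and no library of one strain overlapped the other except knockout culture 2 with WT culture 3. The blocked contrast of lsm3 was 0.45 (SE 0.11, adjusted p = 0.0552). For ost2, an oligosaccharyltransferase subunit gene, the contrast was 0.72 (SE 0.32, adjusted p = 0.252), and by culture 0.48, 0.09 and 1.90.

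The 2 legs of the peak were unequal in the knockout. Against time point 5, 14 members were higher midway without the block, compared with 4.38% of all genes tested, and 74 were higher with it, compared with 15.3%. In that fit 0 members and 9.42% of all genes were lower midway. The 14 were hsp16, snd302, vip1, hsp10, mms2, pgi1, tpx1, rhp6, rho1, tsc13, adh1, ptp4, SPCC777.12c and pss1. Without knockout culture 1 or 3 the unblocked count was 0, against 0% of all genes, and without culture 2 it was 45, against 9.47%. With the block the count was 11 without culture 1, against 4.26% of all genes. Against 125, 0 members were called by edgeR without the block, and 0.0724% of all genes were called higher. At an unadjusted p under 0.05, 10 members were higher, against 251 of the 5528 genes. DESeq2 called 5 members higher, against 0.47% of all genes. With the block 9 members were higher midway than at 125, compared with 2.37% of all genes, and 0 were lower, compared with 4.79%. The 9 were hsp16, SPBC1105.13c, plr1, SPBC32F12.12c, SPAC3G6.05, tts1, mug35, tsc13 and SPBC30D10.14. All 9 were also higher against 5, and 0.253% of all genes passed both legs. Without culture 1 the count against 125 was 0, without culture 3 it was 1 and without culture 2 it was 23. The shares of all genes in these 3 fits were 0, 0.698 and 5.44%. The median member stood 0.60 above 5 and 0.23 above 125 without the block, and the medians over the 4633 genes were −0.07 and 0.02.

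Several members with other roles passed the leg against time point 5 alone, in the fit with the block. In ubiquitin conjugation these were rhp6, for an E2 enzyme of DNA damage tolerance, and mms2, for a partner of the E2 enzyme Ubc13. The gene rhp6 had 103, 109 and 91.7 CPM at 5 in knockout cultures 1, 2 and 3, against 107, 93.7 and 104 CPM in WT cultures 1, 2 and 3. At 20 it had 153, 111 and 130 CPM in the knockout cultures, against 163, 133 and 194 CPM in the WT cultures. The knockout values at 20 lay above all those at 5, by little in culture 2, and rhp6 was higher midway than at 5 by 0.48 (SE 0.11, edgeR adjusted p = 0.00746). For mms2 the difference was 0.72 (SE 0.15, adjusted p = 0.00288).

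The gene rho1 encodes the GTPase that activates cell wall glucan synthesis. It had 916, 1118 and 801 CPM at 5 in knockout cultures 1, 2 and 3, against 1062, 1190 and 860.2 CPM in WT cultures 1, 2 and 3. At 50 it had 1327, 1558 and 1397 CPM in the knockout cultures, against 1372, 1593 and 1254 CPM in the WT cultures. Each culture of both strains was higher at 50 than at 5. At 105 it had 1177, 1254 and 1155 CPM in the knockout cultures, against 1202, 1589 and 1146 CPM in the WT cultures. At 125 it had 1337, 1352 and 1308 CPM in the knockout cultures, against 1143, 1377 and 1099 CPM in the WT cultures. Midway it was higher than at 5 by 0.74 (SE 0.12, edgeR adjusted p = 5.98e-04), and its midway contrast of 0.30 did not pass.

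Among RNA-processing members, smg1 (0.93), mnh1, for the Mago nashi protein of the exon junction complex in animals (0.77), nhm1, for a cap-hydrolysing enzyme (0.69), and tgs1, for the methyltransferase of snRNA caps (0.45), were higher midway than at 5 with the block. So were dut1, for the enzyme that hydrolyses dUTP (0.63), the RNA polymerase subunit gene rpb8 (0.60) and the vesicle traffic genes vps55 (0.63), vps68 (0.38) and sec17 (0.39). The estimates of taf13, a TFIID subunit gene (0.20), and vps29, a retromer subunit gene (0.26), did not pass on this leg. For the 76 members not called in the midway contrast, the blocked estimates ran from 0.007 to 0.83.

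Scaling moved these values. Scaled to the human counts, the median midway contrast of all genes tested was 0.52 and that of the members 0.93, with 4 members called, against 0.235% of all genes. Against time point 5 the median of all genes was 0.82 in that scaling and −0.30 when scaled to the S. pombe total, where the member medians were 1.49 and 0.34. The members called higher were 89 and 10 in these 2 scalings, against 20.2% and 3.04% of all genes tested. The members' median lay above that of all genes in each scaling. A change of scaling moves all genes nearly alike, so this gap could hardly have changed and is no check of the peak.

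Between the strains, 0 members differed at steady state by edgeR or DESeq2, and 0 had an unadjusted p under 0.05 in either direction. Of all genes tested, 0% were called higher and 0.0186% lower, the single gene being slr1. The members' median difference, knockout minus WT, was 0.02 (log2), and they ranged from −0.46 for hsp16 to 0.61 for smg1, which encodes a core protein of spliceosomal particles. The steady-state levels of hsp16 were 74.5, 299.9 and 104 CPM in knockout cultures 1, 2 and 3, against 234, 188 and 238 CPM in WT cultures 1, 2 and 3. The knockout range spanned the WT range, and the difference did not pass (SE 0.46, edgeR adjusted p = 1).

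At labelled 105 edgeR called 0 members in either direction, as did DESeq2, against 0% of all genes called higher and 0.0172% called lower. One member had an unadjusted p under 0.05: lsm3, with 38.8, 32.7 and 19.0 CPM in knockout cultures 1, 2 and 3, against 66.4, 48.2 and 32.6 CPM in WT cultures 1, 2 and 3. WT culture 3 lay just below knockout culture 2, so the strains overlapped, and the difference of −0.64 did not pass the adjusted threshold (SE 0.28). The median difference over members was −0.04, with a range from −0.91 for apq12 to 0.51 for pre5.

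The members shared a short length that the score had not used. In the RefSeq annotation their mRNAs had a median of 1036 bases, against 1758 bases over the 4621 of 4633 genes with an annotated mRNA, and 90 of 100 were shorter than that second median. Coding sequences had medians of 571.5 and 1182 bases. The share of uridine, the base 4-thiouracil replaces, was close in the 2 groups, with medians of 32.96% and 32.13%, so a member mRNA held fewer uridines, 345.5 against 567. Introns were present in 60% of members and 49.4% of the 4621 genes. The part of length or uridine number in the midway peak was not tested.

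**Figure D5:**
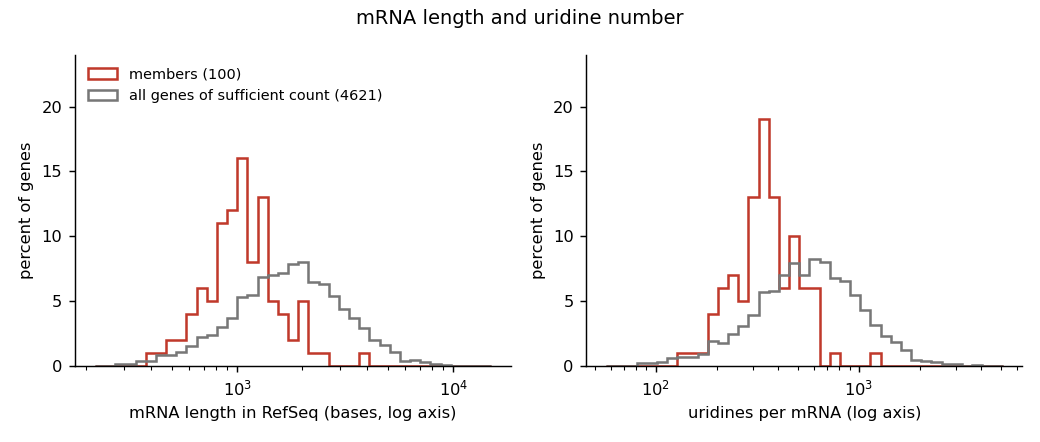
Distribution of mRNA length (left, bases, log axis) and of uridines per mRNA (right, log axis) among the 100 members (red) and the 4621 genes with an annotated mRNA (grey), as percent of each group. The members' medians, 1036 bases and 345.5 uridines, lie below 1758 bases and 567 uridines.

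Steady-state RNA ranked above every labelled mean for 47 members in the knockout and for 24 in WT, against 740 and 533 of the 4633 genes. The members were spread over the genome, with 46 on chromosome I, 40 on II and 14 on III. Next to each other lay 3 pairs: pyp3 with SPAC11E3.10, nhm1 with sld5, and hsp20 with mms2. By annotation 35 members overlapped a coding gene on the opposite strand, among them hsp10, aha1, cnx1, pgi1 and ost2. On the same strand 5 did so: ema19, zta1, vti1, pac3 and fyv4. Reads in these overlaps may come from either gene, and reads set aside as ambiguous made up 0.367 to 0.752% of a library. The share of all genes with such overlaps was not counted.

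Other groups had few members. The proteasome list of 29 genes held 3 members, pre5, pre6 and pre3, of which pre3 rose midway with the block by 0.32 (SE 0.08, edgeR adjusted p = 0.0477); the list median was 0.14. Of 59 mitochondrial ribosomal protein genes rsm19 was a member, and of 49 oxidative phosphorylation genes atp19, a small subunit of ATP synthase. Neither was called. The list of 141 genes with ribosomal protein prefixes held 1 member, rpp40, which encodes a subunit of RNase P and not a ribosomal protein. Likewise spc3, in the list of kinetochore, spindle and cytokinesis genes by its prefix, encodes a signal peptidase subunit. Of 5 genes of the uracil response list, 0 were members, with a list median of 0.42 in the knockout midway contrast and 0 called. The levels of urg1 differed widely between cultures: at 20 it had 8.45, 2040.1 and 25.9 CPM in knockout cultures 1, 2 and 3, against 2964, 169 and 15.7 CPM in WT cultures 1, 2 and 3.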

How the data were processed

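Per the labels, RNA was prepared with a stranded mRNA kit. Per the submitters' processing notes the tools were R 3.5.2, HTSeq 0.6.1p2, STAR 2.5.2a and Trimmomatic 0.36. Builds, annotation and strand setting: not given in the sources used here. The deposited files hold raw counts per gene, not normalized by the authors, for 7268 S. pombe, 28006 human and 17104 fly genes. Counter summary lines stayed out of totals; reads without a feature made up 3.62 to 8.49% and reads without a unique place 5.82 to 48.0% of a library. The labels do not say why human and fly RNA is present.

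Counts were tested with edgeR 4.0.16 (TMM, filterByExpr with a minimum count of 10, quasi-likelihood F test, Benjamini-Hochberg adjustment over all genes tested, threshold 0.05) in R 4.3.3, with DESeq2 1.42.0 as an alternative, after a test on simulated data. Levels are CPM of S. pombe totals. The knockout time course used 15 libraries, steady state 6, and labelled 105 all 30 labelled libraries. Names, lengths and upstream sequence came from RefSeq ASM294v3, which matched 6846 identifiers. The members and gene lists were chosen with earlier results of these data known.

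Pairing within a strain comes from the design, since a culture was sampled repeatedly: deviations of knockout labelled libraries from their group means correlated at a median of 0.71 within a culture (0.22 to 0.90) and −0.55 between cultures. Between strains, libraries of the same number correlated between −0.59 and 0.75 at steady state and do not form pairs. Separate colonies are replicates here. Genes named were slr1, the 10 highest scores, the largest called changes, up to 4 members per list and those at the score limit; others are said to have been picked after their values were seen, apart from members named only to complete a count. Not every gene the rule covers is described.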

Additional observations from a re-analysis of the deposited data

Results flagged for a closer look

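The DNA repair gene swi10, a member, had midway contrasts of opposite sign in the strains. Its contrast in log2(CPM + 1) was below 0 in each of the 3 knockout cultures, with a mean of −0.0573, and above 0 in each of the 3 WT cultures, which had chosen it. It had 26.8, 30.2 and 14.8 CPM at 20 in knockout cultures 1, 2 and 3, against 31.4, 28.3 and 32.8 CPM in WT cultures 1, 2 and 3. The difference between strains was not tested. With TMM scaling the knockout contrast was 0.03 (SE 0.19, edgeR adjusted p = 1), so its sign depends on the scaling.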

How the results depend on the processing

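The replicate block, here the culture, gave 24 members called higher in the midway contrast against 0 without it, 74 against 14 for the leg against 5, 9 against 0 for the leg against 125 and 9 against 0 for both legs. Between strains the block is only the replicate number, which does not pair them; it changed no member's call, but slr1, called at steady state without it, was not called with it. DESeq2 gave 10, 34, 5 and 5, against 0.597, 8.52 and 0.47% of all genes for the contrast and the 2 legs. The share of all genes that passed both legs was 0% without the block and 0.253% with it. For the other fits here and below that share was not counted, so their counts for both legs have no background. Human-count scaling gave 4 midway (0.235% of all genes) and 89 against 5 (20.2%). Scaling to the S. pombe total gave 1 against 125 (0.199%), and a fit of all 30 labelled libraries 1 against 5 (1.65%). Leaving out each knockout culture in turn gave 0 to 16 midway, 0 to 45 against 5, 0 to 9 against 125 and 0 to 8 for both. The highest of each came without knockout culture 2 (16, 45, 9 and 8). That is also the fit of the set with the higher fly-to-human ratio, which held knockout cultures 1 and 3. That fit called 0.786, 9.47 and 1.78% of all genes higher for the contrast and the 2 legs.

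Chosen after seeing the data, blocked fits scaled to the S. pombe total gave 16, 40, 16 and 12, and to the human counts 30, 99, 1 and 1. Of all genes, 0.633, 8.85 and 6.08% were called in the first of these fits for the contrast and the 2 legs, and 1.43, 32.3 and 0.0543% in the second. Blocked fits gave 0, 11, 0 and 0 without knockout culture 1, 37, 65, 23 and 19 without culture 2, and 21, 71, 1 and 1 without culture 3. For the contrast and the 2 legs, the shares of all genes were 0, 4.26 and 0% without culture 1. They were 2.71, 13 and 5.44% without culture 2, and 0.942, 13.9 and 0.698% without culture 3. No member was called lower, nor called between strains, in any fit run. The score found 63 to 72 of the 100 members again without a WT culture, with 63 without WT culture 3, and 55 with TMM-scaled CPM.

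Knockout culture 2 alone, with no test, had a median contrast of 0.24 in edgeR and of 0.15 on the log2(CPM + 1) scale. With 3 cultures a strain, of which 1 stood apart, single calls depend on which cultures enter, and the cause of these differences was not tested.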
